A study of Homo sapiens with 6 samples.

Results

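The metallothionein and zinc response genes were followed in U251 cells, an established human glioblastoma line, after knockdown of cyclophilin B. The set held MT1A, MT1E, MT1F, MT1G, MT1H, MT1M, MT1X and MT2A, the zinc exporter gene SLC30A1 and the zinc sensor gene MTF1. Members were taken by symbol, current or former, from the annotation of the Illumina HT-12 version 4 bead array. This gave 12 probes of 9 genes, out of 47231 probes on the array and 20046 named genes. No probe was listed for MT1A, so it was not analysed here.

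The shCypB group was U251 cells carrying a lentiviral pLKO1.5 short hairpin RNA against the cyclophilin B gene (PPIB), and the shCON group was U251 cells carrying a non-target hairpin in the same vector. Both groups were grown in DMEM with serum, and total RNA was taken after 5 days of transduction. Each group had 3 arrays, which the labels call biological replicates. A single hairpin was set against a single control hairpin, so an effect of cyclophilin B loss and an off-target effect of that hairpin cannot be told apart.

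Metallothioneins are small, cysteine-rich proteins that hold zinc and copper and also bind toxic metals such as cadmium. When free zinc rises in a cell, the zinc-finger protein MTF1 moves onto short DNA motifs, the metal response elements, and switches on metallothionein genes and SLC30A1, whose product ZnT1 pumps zinc out across the plasma membrane. Metallothionein genes also respond to glucocorticoids and to oxidative stress, and in brain they are known chiefly from astrocytes. Cyclophilin B is a protein-folding isomerase of the endoplasmic reticulum.

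The promoters below are shown because they carry matches to the core of the motif that MTF1 binds, in genes with different results in the test. MT1X fell, SLC30A1 rose, MT2A missed the threshold and MT1H was not detected, and these results were not tested against each other. Each is the 250 bases before the transcript start in RefSeq (GRCh38.p14), 5′ to 3′ on the gene's own strand. Capitals mark the core of a metal response element, TGCACNC or TGCGCNC, on either strand.
MT2A, chr16:56608334-56608583, plus strand: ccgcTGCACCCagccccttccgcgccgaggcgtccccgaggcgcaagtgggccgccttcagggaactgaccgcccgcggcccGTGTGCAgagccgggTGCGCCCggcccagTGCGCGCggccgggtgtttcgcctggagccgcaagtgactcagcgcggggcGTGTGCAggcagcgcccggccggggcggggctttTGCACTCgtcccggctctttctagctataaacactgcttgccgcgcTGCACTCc
MT1X, chr16:56682220-56682469, plus strand: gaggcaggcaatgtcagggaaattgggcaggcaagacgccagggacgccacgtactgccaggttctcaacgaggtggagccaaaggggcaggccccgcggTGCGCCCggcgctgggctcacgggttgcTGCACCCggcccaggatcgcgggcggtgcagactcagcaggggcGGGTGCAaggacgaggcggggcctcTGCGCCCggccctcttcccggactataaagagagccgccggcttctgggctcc
MT1H, chr16:56669564-56669813, plus strand: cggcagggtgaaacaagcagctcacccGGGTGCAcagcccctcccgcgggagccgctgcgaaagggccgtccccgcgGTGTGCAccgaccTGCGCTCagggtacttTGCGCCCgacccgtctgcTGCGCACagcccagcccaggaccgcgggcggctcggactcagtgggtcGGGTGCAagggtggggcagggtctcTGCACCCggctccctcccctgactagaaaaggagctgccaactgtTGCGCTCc
SLC30A1, chr1:211579162-211579411, minus strand: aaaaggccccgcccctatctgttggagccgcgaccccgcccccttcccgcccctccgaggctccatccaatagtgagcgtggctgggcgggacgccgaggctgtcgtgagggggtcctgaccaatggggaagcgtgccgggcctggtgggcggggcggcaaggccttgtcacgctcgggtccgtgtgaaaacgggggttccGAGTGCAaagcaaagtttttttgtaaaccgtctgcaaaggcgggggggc

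The MT2A promoter held 7 matches to the core, MT1X held 4, MT1H held 8 and SLC30A1 held 1. Of 35116 promoter entries searched over the same length, 24.8% held at least 1 match, 0.37% at least 4, 0.0313% at least 7 and 0.0171% at least 8. The MTF1 promoter held none, which says only that these letters are not in that window. MT1X and MT1H shared the position of 2 matches, which began 78 and 53 bases before the start, and MT2A and MT1H shared a match that began 8 bases before it. The MT2A promoter also held 1 match to the AP-1 motif TGACTCA, a motif found in 4.2% of the entries. The GC box GGGCGG was matched in all 5 promoters and in 42.6% of the entries. MT2A and MT1X held the TATA motif TATAAA, found in 10.7% of the entries. These motifs were searched on both strands and could overlap. A promoter entry was found for 5 of the 10 genes.

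**Figure D1:**
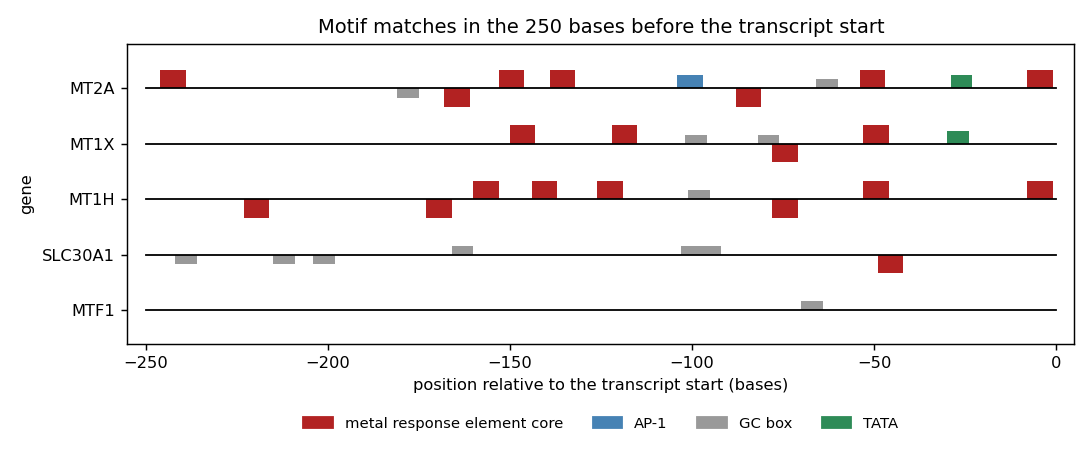
Motif matches in the 250 bases before the transcript start of MT2A, MT1X, MT1H, SLC30A1 and MTF1. The horizontal axis is the position in bases relative to the start, and blocks above and below each line are matches on the gene's own and on the opposite strand. The metal response element cores (red) numbered 7, 4, 8, 1 and 0 in this order of genes.

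Bead signals were background corrected, quantile normalized and put on a log2 scale, and every level given here is a log2 signal unless it is called a deposited signal. Between 16597 and 18700 probes per array were detected, meaning a detection p below 0.05 against the negative control beads, and the number of arrays limits the precision. Arrays of a group correlated at 0.987 to 0.994 over tested probes and arrays of different groups at 0.957 to 0.965. Every correlation within a group was above every one between groups. Before normalization, however, the arrays differed in brightness. The second shCON array had a mean deposited signal of 364 and 18258 detected probes. The other shCON arrays had means of 293 and 258, with 16597 and 16703 detected. The shCypB arrays had means of 326 to 355, with 17632 to 18700 detected. The probe of PPIB, the targeted gene, read 4.58, 4.44 and 4.81 in shCypB cells, undetected on all 3 arrays, against 6.05, 5.68 and 5.35 in shCON cells. That is at least 1.45-fold lower in shCypB cells. The limma adjusted p of 0.0034 is that of the fitted log2 change of -1.08, not of the bound, and the probe entered the test only through the shCON arrays.

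Of the 12 probes, 8 were detected on at least 3 of the 6 arrays and could be tested. In shCypB cells 5 of them rose, 1 fell and 2 did not pass the test, with limma and a Benjamini-Hochberg adjusted p below 0.05 over all 17608 tested probes. Much of the array differed between the groups, since 20.3% of all tested probes rose and 18.2% fell, 38.5% in all. With the arrays scaled to a common median instead, 3779 probes rose and 917 fell, against 3570 and 3205. The median log2 change was 0.49 over the 8 probes and 0.02 over all tested probes. The groups did not overlap at 7 of the 8 probes, and at 50.4% of all tested probes, where the shCypB arrays were the higher ones at 26.6% and the lower ones at 23.8%. These probes had to be detected to be tested, so the count does not speak for the other 4. Among those that rose, the second SLC30A1 probe met the filter through the shCypB arrays.

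The estimates for the detected metallothioneins did not share a direction, but the calls of MT1E and MT1X each held under only 8 of 15 other settings. MT1E and MT1F rose, MT1X fell, and MT1G and MT2A were higher on average without passing the test. MT1H and MT1M were not detected on any array. The changes were modest, and 30.3% of all tested probes changed at least as much as MT1X in either direction. Metallothionein genes are close in sequence, so a probe may also read a relative. How far this happened was not tested.

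MT1F, a metal-inducible member of the MT1 group, read 7.03, 7.20 and 7.26 in shCypB cells and 6.66, 6.68 and 6.55 in shCON cells. Every shCypB array was above every shCON array. MT1F thus rose 1.44-fold, a log2 change of 0.53 ± 0.10 (SE, n = 3 each, limma adjusted p = 0.0056). It passed the test under all 15 other settings tried, with log2 changes of 0.34 to 0.80.

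MT1E, another member of the MT1 group, had a probe that read 10.04, 9.91 and 10.09 in shCypB cells and 9.41, 9.83 and 9.46 in shCON cells. The groups did not overlap, but the second shCON array came within a narrow gap of the lowest shCypB array. In the deposited signals the groups did overlap, at 1047 to 1252 in shCypB cells and 569 to 1084 in shCON cells. The log2 change was 0.45 ± 0.13 (SE, n = 3 each), or 1.36-fold, with a limma adjusted p of 0.034. The call was lost on leaving out any array other than the second shCON array, with limma adjusted p-values of 0.052 to 0.11. Over all 15 other settings its log2 change lay between 0.37 and 0.73, the highest under median scaling. A second MT1E probe read 4.83, 4.79 and 5.15 in shCypB cells and 5.03, 5.10 and 5.59 in shCON cells. It was detected on 1 array of each group and was not tested.

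MT1X was the metallothionein that fell. It read 9.15, 9.42 and 9.28 in shCypB cells and 9.96, 9.79 and 9.52 in shCON cells. All shCypB arrays were below all shCON arrays, with the third shCON array the nearest to them. The log2 change was -0.48 ± 0.14 (SE, n = 3 each), or 0.718 times the shCON level, with a limma adjusted p of 0.029. Deposited signals overlapped, at 708 to 759 in shCypB cells and 592 to 1053 in shCON cells. The call was lost without the first or the third shCypB array, or without the first or the second shCON array (limma adjusted p = 0.071 to 0.097). Scaling by the median in place of quantiles gave a log2 change of -0.18 (limma adjusted p = 0.62). That scaling moved the median of all tested probes to 0.22, and relative to it MT1X stood at -0.41.

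MT2A, the metallothionein most widely expressed in human tissues, read 11.65, 11.92 and 11.83 in shCypB cells and 11.62, 11.45 and 11.47 in shCON cells. The groups did not overlap, although the first array of each group differed little. The log2 change was 0.29 ± 0.11 (SE, n = 3 each) and did not pass (limma adjusted p = 0.074). It passed under 5 of 15 other settings, among them the authors' own processed signals (limma adjusted p = 0.027), with log2 changes of 0.23 to 0.53. MT1G read 5.91, 5.61 and 6.10 in shCypB cells and 4.88, 5.20 and 5.75 in shCON cells. Its groups overlapped, since the third shCON array was above the second shCypB array, and the first shCON array did not detect it. The log2 change of MT1G was 0.60 ± 0.23 (SE, n = 3 each, limma adjusted p = 0.074), and it passed under 7 of 14 other settings, with log2 changes of 0.25 to 0.84.

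MT1M read 4.46, 4.48 and 4.34 in shCypB cells and 4.45, 4.39 and 4.47 in shCON cells, undetected on all 6 arrays. The 2 probes of MT1H were undetected as well. The first read 4.61, 5.02 and 4.67 in shCypB cells and 4.73, 4.75 and 4.59 in shCON cells. The second read 4.57, 4.55 and 4.58 in shCypB cells and 4.53, 4.48 and 4.54 in shCON cells. An undetected probe has only an upper bound, so neither gene is shown to be silent or unchanged. The other metallothioneins with a probe, MT1B, MT1IP, MT1L, MT3 and MT4, were undetected on all arrays too. MT3 is the form known from neurons and MT4 the form known from stratified skin.

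**Figure D2:**
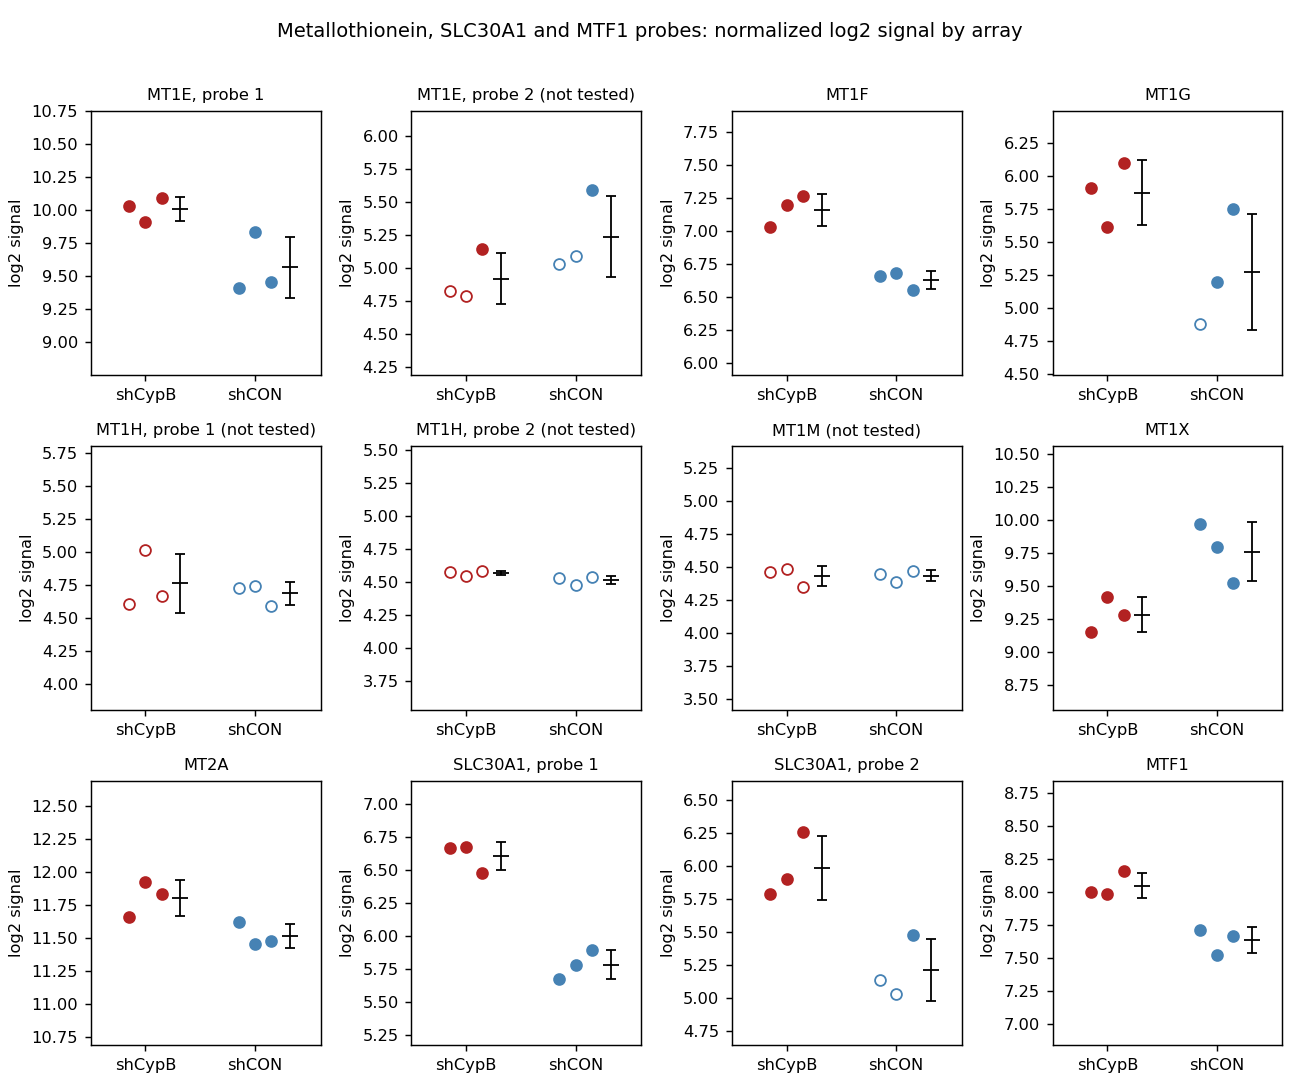
Log2 signal of each of the 12 probes on every array (vertical axes, each spanning the same number of log2 units), shCypB left and shCON right. Filled points were detected and open points were not, and bars are the mean ± SD of 3 arrays. The shCypB points lie above for MT1E probe 1, MT1F, MT2A, SLC30A1 and MTF1 and below for MT1X, and the MT1H and MT1M points are all open.

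MT1X moved against MT1E and MT1F, and this was also described as a ratio of probes within an array. A ratio removes a brightness factor shared by all probes of an array, but not a background that adds to every signal. Such a ratio restates changes already given and is not separate support for them. Only the change of such a ratio between groups can be read, because probes differ in brightness for reasons of design. All 10 pairs of the 5 tested metallothionein probes were compared with a two-sided exact permutation test, which cannot go below 0.1 with 3 against 3 arrays.

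The log2 ratio of MT1E over MT1X was 0.89, 0.50 and 0.81 in shCypB cells and -0.55, 0.04 and -0.06 in shCON cells. It differed by 0.92, with no overlap (exact permutation p = 0.1, Benjamini-Hochberg 0.25). The ratio of MT1X over MT2A was -2.50, -2.51 and -2.55 in shCypB cells and -1.66, -1.66 and -1.95 in shCON cells. It was lower by a difference of -0.77 (exact permutation p = 0.1, Benjamini-Hochberg 0.25), again with no overlap. MT1F over MT1X differed by 1.01 with the same p-values. These 3 ratios all hold MT1X, and they separated the groups in the deposited signals as well, where MT1E and MT1X overlapped when taken alone. Deposited signals still hold background, which weighs most on dim probes such as MT1F. There the 3 differences were 0.86, -0.70 and 0.73 in the same order. MT1F over MT2A differed by 0.24 without overlap after normalization, but by 0.03 with overlap in the deposited signals. The ratio of MT1E over MT1F differed by -0.08 and overlapped (exact permutation p = 0.6, Benjamini-Hochberg 0.78), as did MT1E over MT2A and all 4 ratios with MT1G (exact permutation p = 0.2 to 0.9).

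**Figure D3:**
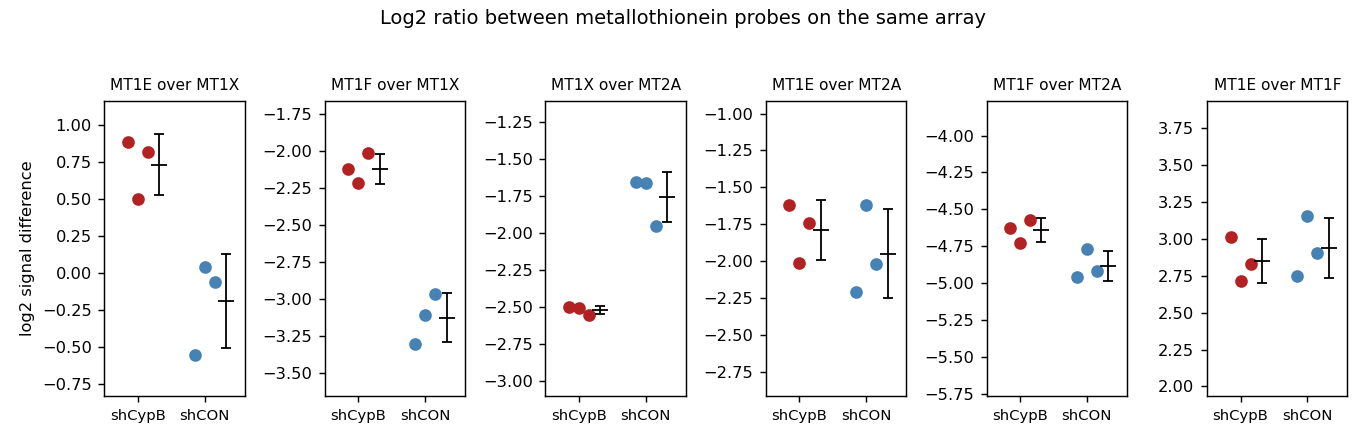
Log2 ratio of pairs of metallothionein probes on the same array (vertical axes, log2 signal difference), shCypB left and shCON right, with the mean ± SD of 3 arrays. The 3 pairs with MT1X drawn here separate the groups, by 0.92, 1.01 and -0.77 (MT1G over MT1X, not drawn, overlaps), while MT1E over MT2A and MT1E over MT1F overlap.

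The exporter SLC30A1 rose on both of its probes, of which only the first was detected on all 6 arrays. The first read 6.67, 6.68 and 6.48 in shCypB cells and 5.68, 5.78 and 5.89 in shCON cells. The gap between the groups was wider than the spread within either. This was a 1.77-fold rise, a log2 change of 0.82 ± 0.11 (SE, n = 3 each, limma adjusted p = 0.00095). The second probe read 5.79, 5.90 and 6.26 in shCypB cells and 5.13, 5.03 and 5.48 in shCON cells, where only the third array detected it. The shCypB arrays brought this probe past the detection filter, so its rise is not separate from the filter. Its log2 change was 0.77 ± 0.17 (SE, n = 3 each, limma adjusted p = 0.0087). The deposited signals of the first probe did not overlap either, at 150 to 167 in shCypB cells and 99.8 to 110.2 in shCON cells. Both probes passed under all 14 other settings that kept them, with log2 changes of 0.42 to 1.03 for the first and 0.32 to 0.90 for the second.

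MTF1, the zinc sensor itself, read 8.00, 7.99 and 8.16 in shCypB cells and 7.72, 7.53 and 7.67 in shCON cells. All shCypB arrays were above all shCON arrays. MTF1 rose 1.33-fold, a log2 change of 0.41 ± 0.10 (SE, n = 3 each, limma adjusted p = 0.015). Under other settings its log2 change lay between 0.34 and 0.71, and it passed in 14 of 15. The exception was the fit without the third shCypB array, with a change of 0.36 and a limma adjusted p of 0.060. MTF1 is regulated largely through its location and zinc binding, which an mRNA array does not measure.

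**Figure D4:**
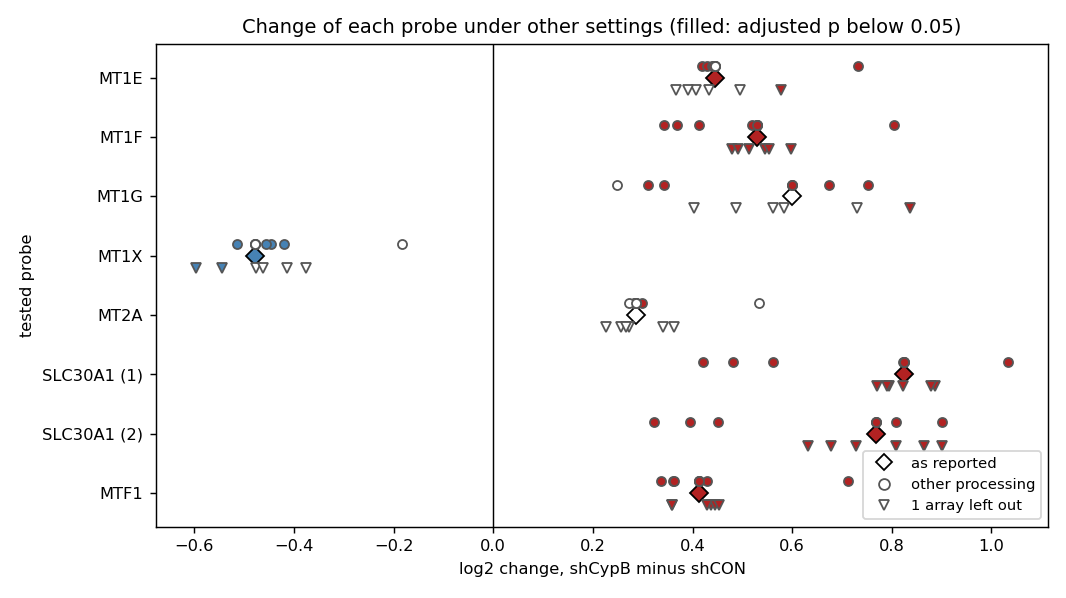
Log2 change of the 8 tested probes (horizontal axis, shCypB minus shCON) as reported (diamonds), under other processing (circles) and with 1 array left out (triangles). Filled symbols had an adjusted p below 0.05. MT1F and both SLC30A1 probes are filled throughout, and MT1X stays below 0 with open symbols among the alternatives.

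The wider zinc transport system was read from lists of genes at each gene's brightest tested probe. Over all 10517 tested genes, 23.1% rose and 20.8% fell, with a median log2 change of 0.03. Of the other members of the ZnT exporter family, most of which move zinc out of the cytosol, 3 of 5 tested genes rose, none fell and 2 did not pass, with a median of 0.49. SLC30A5, named after its values were seen, was among those that did not pass at its brightest probe, at 0.10 ± 0.11. Another of its probes, detected on all 6 arrays, rose by 0.40 ± 0.09 (limma adjusted p = 0.012). SLC30A3, the transporter that loads synaptic vesicles in neurons, rose by 0.68 ± 0.11 on the log2 scale (limma adjusted p = 0.0026). SLC30A7, which fills the Golgi with zinc, rose by 0.63 ± 0.12 (limma adjusted p = 0.0057), and SLC30A9 by 0.49 ± 0.09 (limma adjusted p = 0.0041).

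Of the importers of the ZIP family, which bring zinc into the cytosol, 4 of 10 tested genes rose, 1 fell and 5 did not pass, with a median of 0.22. SLC39A8, which also carries manganese and cadmium, read 8.13, 8.06 and 8.00 in shCypB cells and 6.80, 7.23 and 7.13 in shCON cells. This 2.01-fold rise had a limma adjusted p of 0.00092 and no overlap. SLC39A12 was undetected on all shCON arrays and was at least 1.27-fold higher in shCypB cells. It entered the test only through the shCypB arrays, so its place among the 4 that rose is not separate from the filter. Its limma adjusted p of 0.00079 is that of the fitted log2 change of 0.87, not of the bound. SLC39A3 rose by 0.68 ± 0.10 (limma adjusted p = 0.0016), and of its other probes 1 also rose and 1, at -0.18, did not pass. The remaining importer that rose, SLC39A6, was named after its values were seen. At its brightest probe it changed by 0.37 ± 0.11 (limma adjusted p = 0.028) and passed in 1 of the 6 fits that left out an array. Another SLC39A6 probe, which only 1 shCON array detected, rose by 1.04 ± 0.13 (limma adjusted p = 0.00092). SLC39A11 fell, by a log2 change of -0.83 ± 0.14 (limma adjusted p = 0.0028), but under median scaling it was at -0.55 and missed the threshold (limma adjusted p = 0.076). Importers and exporters thus both held genes that rose.

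**Figure D5:**
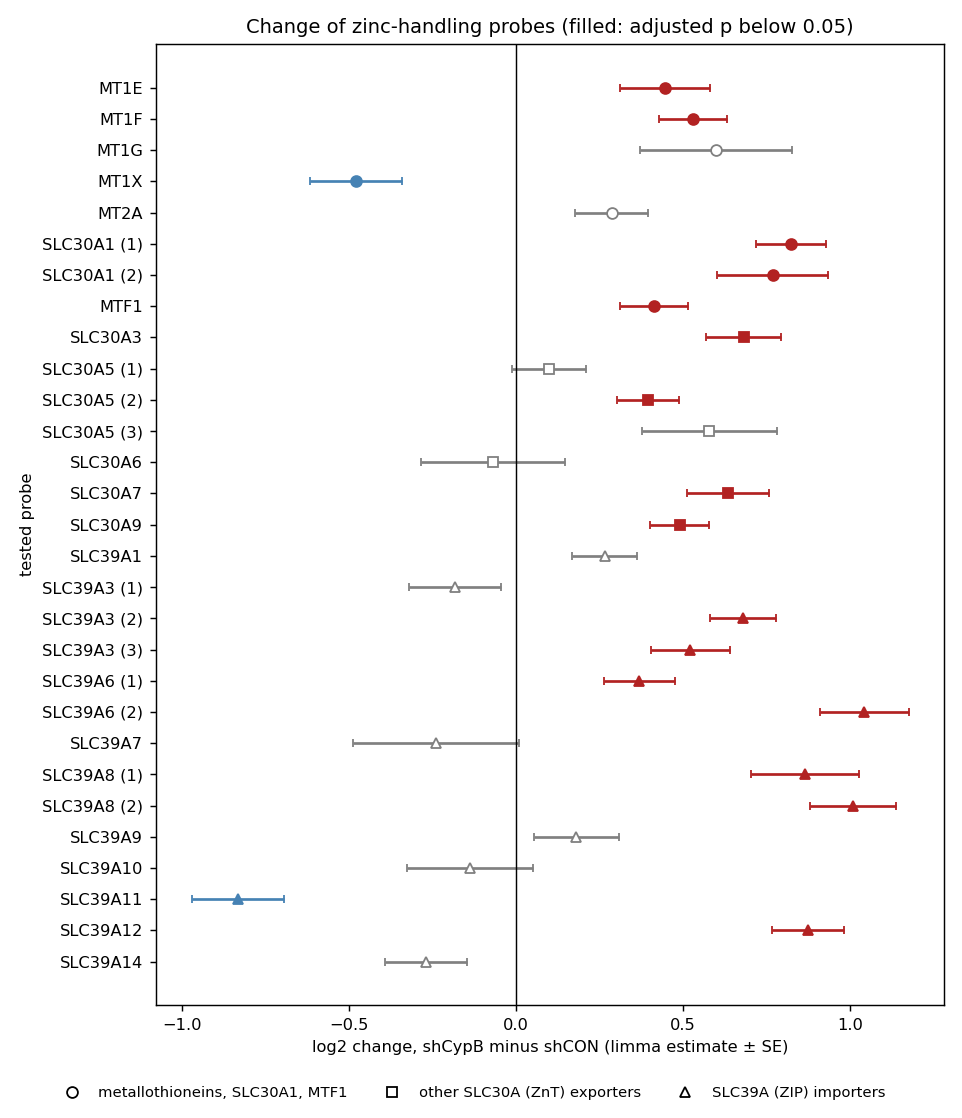
Log2 change, shCypB minus shCON, with its limma standard error (horizontal axis) for each tested probe of the metallothioneins, SLC30A1 and MTF1 (circles), the other ZnT exporters (squares) and the ZIP importers (triangles). Filled symbols passed at an adjusted p below 0.05. MT1X and SLC39A11 are the filled symbols left of 0.

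Other inputs that act on metallothionein genes were read the same way. Among genes of the metal and oxidative stress response, 2 of 14 rose, 2 fell and 10 did not pass, with a median of -0.11. HMOX1, the heme-degrading enzyme induced by oxidants and metals, rose 2.76-fold (limma adjusted p = 0.00021), and GCLC, of glutathione synthesis, rose 1.33-fold (limma adjusted p = 0.033). The call of GCLC was lost without any array other than the second shCON array (limma adjusted p = 0.055 to 0.096) and without a filter (limma adjusted p = 0.071). The heat shock gene DNAJB1 fell by a log2 change of -1.09 ± 0.09 (limma adjusted p = 0.00020), and HSPA1B changed by -0.46 ± 0.11 (limma adjusted p = 0.012), a call lost under median scaling (-0.17, limma adjusted p = 0.66). HSPA1B has a near-identical copy, HSPA1A, which its probe may also read.

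Among copper handling genes 6 of 13 rose, none fell and 7 did not pass, with a median of 0.38. ATP7A, a pump that exports copper, rose by 1.58 ± 0.20 on the log2 scale (limma adjusted p = 0.00084), though only 1 shCON array detected it. SLC31A1, the copper importer CTR1, rose by 0.55 ± 0.15 (limma adjusted p = 0.025), its relative SLC31A2 by 0.98 ± 0.10 (limma adjusted p = 0.00040), and the copper chaperone COX17 by 0.67 ± 0.09 (limma adjusted p = 0.0012). The count of 6 lay between 4 and 7 with an array left out, at 4 without the third shCypB or the third shCON array, and SLC31A1 passed in 3 of those 6 fits. Of 9 tested iron handling genes 1 rose, 1 fell and 7 did not pass, with a median of 0.10. PCBP2, named after its values were seen, was among those that did not pass at its brightest probe, at 0.30 ± 0.10 (limma adjusted p = 0.056). Of its other tested probes, 1 rose by 1.42 ± 0.10 (limma adjusted p = 0.00010) and 1 by 0.35 ± 0.12 (limma adjusted p = 0.047). A further PCBP2 probe, at -0.13, did not pass. SLC11A2, the importer DMT1, rose 2.59-fold (limma adjusted p = 0.00012) and SLC25A28, a mitochondrial iron importer, changed by -0.42 ± 0.09 (limma adjusted p = 0.0085), a call lost under median scaling (-0.13, limma adjusted p = 0.74).

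Among glucocorticoid-responsive genes 4 of 11 rose, 1 fell and 6 did not pass, with a median of 0.13. CRISPLD2 rose 2.70-fold (limma adjusted p = 0.00014) and CEBPD fell by a log2 change of -0.93 ± 0.09 (limma adjusted p = 0.00032). ANGPTL4 rose by 0.49 ± 0.16 (limma adjusted p = 0.040) and DUSP1 by 0.45 ± 0.15 (limma adjusted p = 0.0498), with overlapping groups at DUSP1. The remaining gene that rose, SGK1, was named after its values were seen. It changed by 0.36 ± 0.11 at its brightest probe (limma adjusted p = 0.029), and its other tested probes rose by 0.48 and 0.50. The 6 that did not pass were ERRFI1, FKBP5, GLUL, KLF9, NR3C1 and TSC22D3. The count of 4 fell to 1 without the second shCypB array and to 2 without any other single array, and to 1 without a filter or with the replicate number as a block. ANGPTL4 passed under 4 of 14 other settings and DUSP1 under 8 of 15, while CRISPLD2 and CEBPD passed under all 15. None of these lists was tested as a set.

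The protein-coding metallothionein genes of the chromosome 16 cluster number 11 in the RefSeq annotation, with no other protein-coding gene between them. Among the protein-coding neighbours on either side, NUDT21, an mRNA 3′-end processing factor, rose by 0.52 ± 0.09 on the log2 scale (limma adjusted p = 0.0040). OGFOD1, BBS2, NUP93 and GNAO1 did not pass at any tested probe. SLC12A3, CETP and NLRC5 were not tested, and HERPUD1 had no listed probe.

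The genes whose pattern over the 6 arrays was most like that of MT2A were PGK1, a glycolytic enzyme (Pearson r = 0.998), FYTTD1 (r = 0.997), NFYC (r = 0.992), CARMIL1 (r = 0.989) and CBX5 (r = 0.989). The likeness was measured over 6 arrays in 2 groups, so part of it is the difference between groups. Of 10428 candidate genes, 72 had an r above 0.95 with MT2A. PGK1 read 11.95, 12.22 and 12.14 in shCypB cells and 11.89, 11.68 and 11.71 in shCON cells. Its order of arrays within each group was that of MT2A, which adds nothing because PGK1 was picked by this correlation.

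Markers of the cell line moved beside these genes, and levels of marker lists are given here as the linear normalized signal summed over a list's probes. Such a sum follows mainly the brightest probes of a list and does not speak for its dimmer markers. The brightest were probes of VIM among astrocyte and glioma markers, TUBB3 among neuron markers and COL1A2 among fibroblast and pericyte markers. Of 8 tested astrocyte and glioma markers 3 rose, 3 fell and 2 did not pass. The 2 that did not pass at their brightest probe, VIM and CD44, each had another probe that passed. These probes, picked after their values were seen, were at -0.39 ± 0.09 for VIM (limma adjusted p = 0.015) and 0.35 ± 0.10 for CD44 (limma adjusted p = 0.030). GFAP, the astrocyte filament gene, had a log2 change of -1.84 ± 0.14 (limma adjusted p = 0.00013), and NES, a filament gene of neural stem cells, -0.66 ± 0.10 (limma adjusted p = 0.0022), lost under median scaling (limma adjusted p = 0.27). ALDH1L1, an astrocyte folate enzyme, rose by 0.69 ± 0.14 (limma adjusted p = 0.0066), and SLC1A3, an astrocyte glutamate transporter, by 0.50 ± 0.13 (limma adjusted p = 0.019). The count that rose lay between 1 and 3 with an array left out, and SLC1A3 passed in 3 of those 6 fits. It was 1 without the second shCypB, the third shCypB or the first shCON array. AQP4, OLIG2 and S100B were undetected on all arrays. The list summed to 35479 to 37943 in shCypB cells and 39765 to 43250 in shCON cells. All 4 tested neuron markers rose, among them SYT1, a synaptic vesicle protein (2.12 ± 0.13 on the log2 scale, limma adjusted p = 5.1e-05). Only 1 shCON array detected SYT1, so that difference is taken against a level mostly at background. The shCypB arrays brought SYT1 past the detection filter, so its rise is not separate from the filter. The count of 4 lay between 3 and 4 with an array left out, and MAP2 was lost without the first shCypB array (limma adjusted p = 0.053). GAD1 rose at its brightest probe and at another, but a further probe, detected on all 6 arrays, was at -0.17 ± 0.12 and did not pass. The neuron list had sums of 8015 to 9422 in shCypB cells and 5796 to 6278 in shCON cells. The neuron markers RBFOX3, STMN2 and SLC17A7 were undetected on all arrays.

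Of 4 microglia and macrophage markers 1 rose (CSF1R, 0.54 ± 0.10) and 3 did not pass, with sums of 748 to 774 in shCypB cells and 761 to 825 in shCON cells. PTPRC, CX3CR1 and TYROBP were undetected on all arrays, and 5 of the list's 16 probes were tested. The 1 endothelial marker tested, VWF, did not pass, and the endothelial list summed to 183 to 207 in shCypB cells and 208 to 227 in shCON cells. Only 1 of its 7 probes was tested, so that sum is mostly background and gives no level of the list. Of 3 fibroblast and pericyte markers ACTA2 fell, by a log2 change of -1.22 ± 0.10 (limma adjusted p = 0.00019), and 2 did not pass. COL1A2 did not pass at its brightest probe, at -0.11 ± 0.10. Its other probe, named after its values were seen, was at -0.38 ± 0.11 and passed (limma adjusted p = 0.030). The fibroblast and pericyte list had sums of 13423 to 14286 in shCypB cells and 15558 to 16510 in shCON cells. The part of these shifts in the metallothionein and zinc transporter changes was not tested. All samples were the U251 line, so these lists are not read as numbers of other cell types. Within the line, fewer cells with a transcript and less of it per cell cannot be told apart in bulk RNA.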

How the data were processed

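Total RNA of 6 samples was read on 1-colour Illumina bead arrays. Per the file headers, the deposited values are bead signal intensities, linear and without normalization, each with a deposited detection p-value. The authors also deposited a table of processed intensities, used only as an alternative. Its normalization was not given in the sources used here, and Partek is named in the submitters' processing notes without a role. Log2 signals were computed from the deposited intensities with limma 3.58.1 (R 4.3.3), by normexp (offset 16, negative control values inferred through the detection p-values) and quantile normalization.

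Probes with a detection p below 0.05 on 3 or more of 6 arrays entered the fit (17608 probes). lmFit and eBayes were run with the group as the only term, with Benjamini-Hochberg adjustment. The fit was tested on simulated data. Where a whole group was undetected, the fold is written "at least". Per array, the dim side was the lowest detected value, or the probe's value if that was higher (lowest detected values 5.12 to 5.29 on the log2 scale).

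The annotation gave 1 gene for 30113 probes, several for 8 and none for 17110, and symbols were brought up to date by Entrez identifier against RefSeq. A list gene was read at its tested probe with the highest mean. The text names all members, PPIB, up to 4 called genes per list by size of change (or 2 by p where none was called), 5 neighbours on each side of the cluster, and the 5 genes outside the lists most correlated with the metallothionein probe of highest mean signal. A neighbour of the cluster is not reported here. Members and lists were chosen with earlier results of these data known.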

Additional observations from a re-analysis of the deposited data

How the results depend on the processing

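No change of the 8 tested probes turned its sign under any alternative run (background correction, offset, scaling, the authors' table, detection filter, limma-trend, array weights, replicate block, single arrays left out). The count of probes that rose lay between 3 and 5 with 1 array left out, and the count that fell between 0 and 1. No probe fell under median scaling, without a filter or with the replicate block (0 in each), since MT1X missed the threshold there (limma adjusted p = 0.62, 0.068 and 0.053). MT1E missed it without a filter (0.078) and with the block (0.071). Over all probes, 917 fell under median scaling, against 3205. Relative to the all-probe median under that scaling, SLC30A1 stood at 0.81 and 0.68, MT1F at 0.58 and MT1E at 0.51. Of the list genes, 5 fell under median scaling and 14 with limma-trend, against 9. Of 384 counts for single lists, 334 stayed within 1.5 times and 50 did not. The cause of these differences was not tested. No pairing by replicate number was seen: deviations of same-numbered arrays from their group means correlated at -0.10, -0.11 and 0.0095. With 3 arrays a group such deviations constrain each other, so these values cannot exclude a weak pairing. With the replicate block, 3022 probes rose and 2764 fell. The filter at a detection p below 0.01 on all 6 arrays left out MT1G and SLC30A1. A slide block was not run because the files name no slide. With 3 arrays a group, changes of dim probes such as MT1G are the least certain.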
